A study of Rattus norvegicus with 4 samples.

Results

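The genes described here make up the machinery of DNA replication and entry into S phase, 51 genes out of 31038 rows in the deposited count files. They were chosen by name, from textbook function, to cover origin licensing, the replisome, nucleotide synthesis and chromatin assembly, and histone genes were left out. The choice was made with earlier results of these data known. All 51 had a row of their own symbol. Ribosome footprints, the short stretches of messenger RNA that a ribosome shields from nuclease, had been counted per gene in cultured rat myocardial cells labelled NRVM. The growth protocol in the labels traces the cells to embryonic myocardium, whereas that abbreviation usually stands for neonatal rat ventricular myocytes. The siNT group received a control siRNA and the si3m group an siRNA against eIF3m, a subunit of the initiation factor eIF3. Each group had 2 libraries, and cells of both groups were treated with cycloheximide before lysis to hold ribosomes in place, after which monosome and polysome fractions were collected from a gradient. The labels name no nuclease step. The labels give no strain, sex, dose or time after transfection, and they do not say whether libraries of a group came from separate cultures. The p-values therefore measure only the spread between these libraries, which may be technical.

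DNA replication is prepared in G1, when the origin recognition complex, Cdc6 and Cdt1 load the ring-shaped MCM2-7 helicase onto chromatin. At the start of S phase cyclin E with Cdk2, and other kinases, let Cdc45 and the GINS complex join the helicase, and DNA polymerases with the sliding clamp PCNA then copy both strands. Most of these genes are transcribed in a wave at the G1/S boundary under E2F factors, and cardiac muscle cells are known for leaving this cycle soon after birth.

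Total counts were between 3835750 and 3924434 in siNT and between 6726969 and 8687598 in si3m, so that depth differed with the group. The siRNA target, Eif3m, stood at 532 and 451 CPM in siNT and at 138 and 191 CPM in si3m (edgeR adjusted p = 3.41e-08), a call lost with robust quasi-likelihood (0.0522). CPM here is the count scaled to a common library total with TMM factors, which set the bulk of genes to equal levels between libraries. Cardiomyocyte markers were sparse: 12 of 18 had too few counts to be tested, Tnni3, Myl7 and Nppa had 0 counts in every library, and the alpha myosin gene Myh6 had at most 10 counts in a library. Their summed level was 932 to 971 CPM in siNT and 604 to 632 CPM in si3m, most of it from Atp2a2, a calcium pump that other cells express too. Of the 6 tested, Tnnt2 rose (log2 1.25), and Atp2a2, Ttn and Pln fell. Of 12 fibroblast markers, 8 could be tested and all 8 were higher in si3m, beside 14.0% of all tested genes. Tcf21 had 0 counts in every library. The sum of the 12 was 7928 to 7970 CPM in siNT and 13096 to 13267 CPM in si3m, most of it from the collagen genes Col1a1 and Col1a2. Col1a1 alone had 3852 and 3747 CPM in siNT and 6817 and 6690 CPM in si3m. Dcn had 0 counts in both siNT libraries and 24 and 20 in si3m. It entered the test through si3m only, so its direction was fixed by the filter for low counts. Pdgfra, Lum and Fbln2 had too few counts to be tested. Endothelial markers summed to between 6.47 and 12.7 CPM over the 4 libraries, with Cdh5 and Cldn5 at 0 counts in each, and 4 of 8 had at most 6 counts in any library. Macrophage and leukocyte markers summed to 31.4 and 35.6 CPM in siNT and to 15.8 and 17.0 CPM in si3m, with Lyz2 and C1qa at 0 counts in 3 of the 4 libraries. Most of that sum was Cd14, at 21.4 and 22.9 CPM in siNT and 14.4 and 14.8 CPM in si3m. Of 2 tested, Adgre1 fell and Cd14 did not pass (log2 -0.60). Adgre1 entered the test through siNT only, where it was high. Smooth muscle and pericyte markers summed to 3591 and 3601 CPM in siNT and to 3976 and 4045 CPM in si3m. Of 6 tested, Acta2 rose (log2 0.35), and Tagln (log2 -0.23) and Pdgfrb (log2 -0.39) fell. The part of these cell types, or of depth, in the results on replication genes was not tested.

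Replication genes had more footprints with the siRNA against eIF3m, in part of the list and to unequal degrees. Of the 51 members, all of which had enough counts to be tested, 19 rose, 2 fell and 30 did not pass (quasi-likelihood test of edgeR, Benjamini-Hochberg adjusted p under 0.05). Gins2, among the 19, passed the filter for low counts only through si3m, where it was high. Among all 12672 genes tested, 14.0% rose and 13.9% fell, or 1428 higher and 2217 lower with scaling to the total count in place of 1771 and 1757. The risen share of the members was thus 37.3%, and the fallen share was 3.92%. Because the members were chosen with earlier results of these data known, such comparisons with all genes are descriptions only. The median log2 fold change (si3m over siNT) was 0.50 over the members and 0.02 over all tested genes. Members spanned log2 values from -0.71 for Rpa1 to 2.21 for Tk1, and 9 of 51 reached at least 1, where 6.89% of all tested genes did. Both si3m libraries lay above both siNT libraries for 33 members, against 32.6% of all tested genes, and below them for 5, against 31.3%. In cultures such as these, a larger share of cells in S phase and more footprints per cell cannot be told apart, and without matched RNA values no distinction between transcript level and translation is possible.

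**Figure D1:**
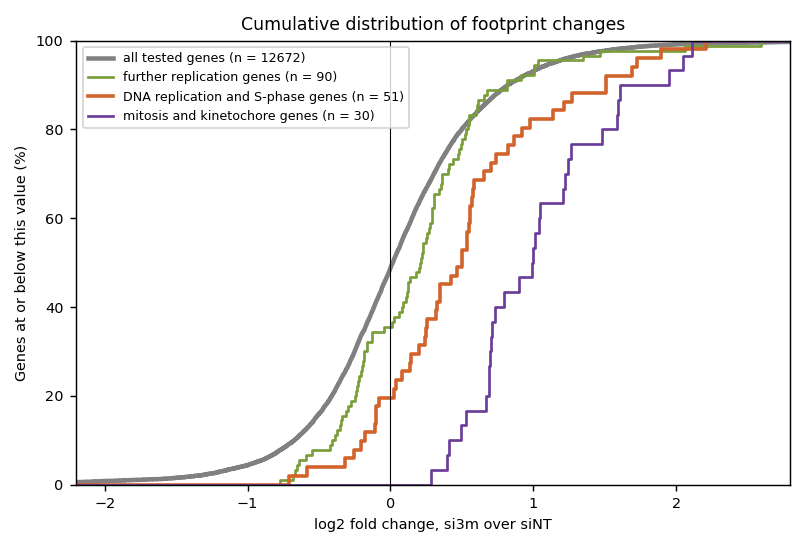
Cumulative distribution of log2 fold changes (x axis, si3m over siNT) as the percent of genes at or below each value (y axis), for all 12672 tested genes, the 51 members, 90 further replication genes and 30 mitosis genes, with values beyond the axis not shown. The line of the members lies to the right of that of all genes, with medians of 0.50 and 0.02, and the mitosis line lies further right, with a median of 0.99. Top2a is in both the further and the mitosis list.

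Summed over the 51 members, siNT libraries had 1883 ± 25.9 CPM and si3m libraries 2225 ± 24.3 CPM (mean ± SD, n = 2 per group). As a share of all deposited counts that was 0.193% ± 0.00233 and 0.216% ± 0.00495. The 19 risen members made up 826 ± 24.8 CPM of the siNT sum and 1225 ± 1.76 CPM of the si3m sum. These 19 were picked by their rise in the same libraries, so the direction of that difference was fixed by the choice. The sum hides opposite moves, since a few abundant members, Rpa1 and Rfc1 among them, were lower in si3m. Leaving out si3m replicate 1 or si3m replicate 2 left 15 members higher, the lowest number over 15 alternative fits, and without si3m replicate 1 or siNT replicate 1 only 1 member, Rpa1, remained lower. The risen members Cdc6, Gmnn, Mcm3, Mcm4, Mcm5, Mcm6, Rfc2, Rfc5, Pola1, Pola2, Tk1 and Uhrf1, 12 in all, and the fallen Rpa1 kept their call in each of those fits that tested them. With DESeq2 16 members were higher and 1 lower.

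**Figure D2:**
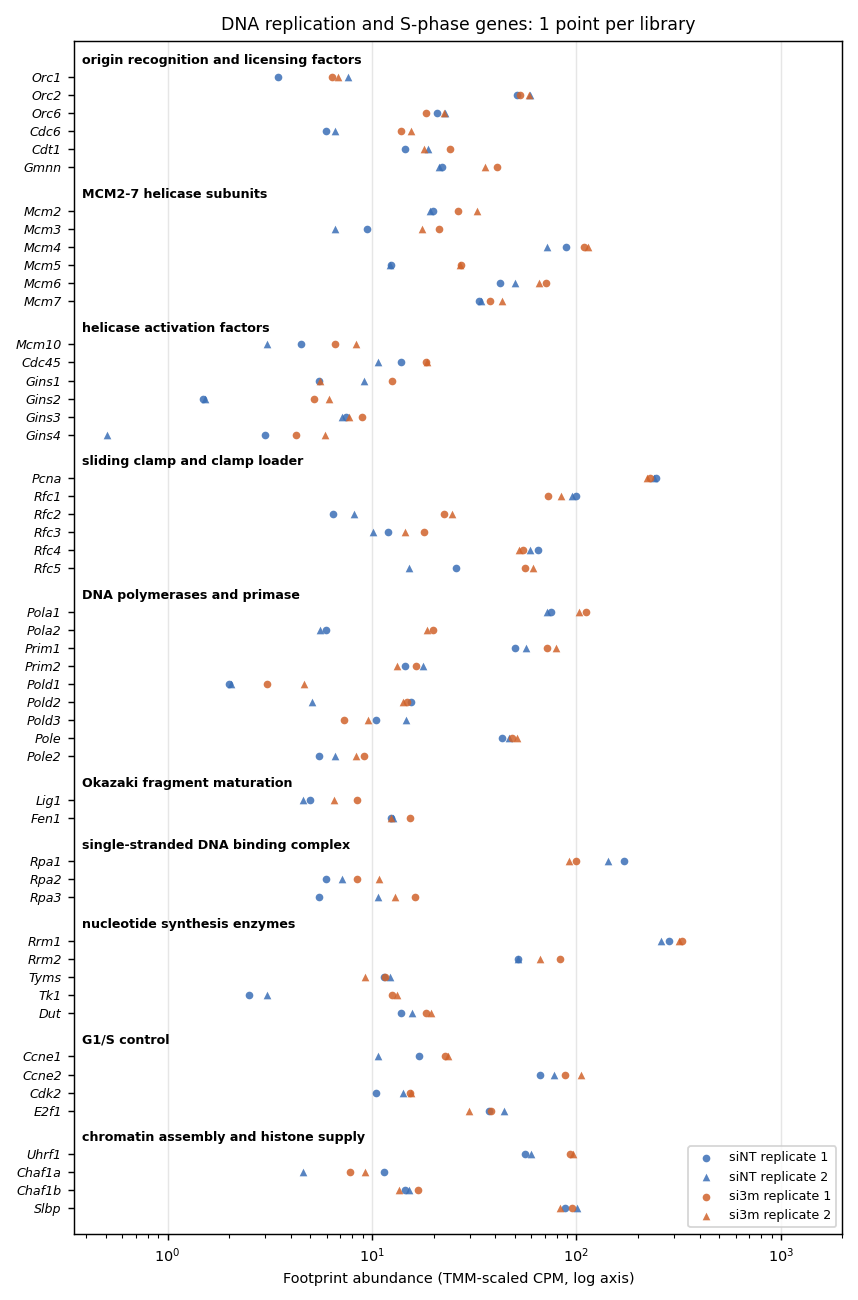
Footprint abundance in TMM-scaled CPM (x axis, logarithmic) of each of the 51 members (rows, grouped by role), with 1 point per library, blue for siNT and orange for si3m, circles for replicate 1 and triangles for replicate 2. Orange points lie right of the blue ones for Cdc6, Mcm5, Rfc2, Pola2 and Tk1, and left of them for Rpa1.

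Promoter sequences of the replication genes are shown because E2F sites near the start of transcription are the textbook feature of this group. In RefSeq windows of the rat assembly GRCr8, which run from 250 bases before the start to 50 after it, 43 of the 51 members were matched. Not matched were Orc1, Cdc6, Mcm4, Gins4, Rpa3, Rrm2, Ccne2 and E2f1. The E2F words searched on both strands were TTTCGCGC, TTTGGCGC, TTTCCCGC and TTTGCCGC, with words that overlap each other counted separately. At least 1 word was present in 19 of 43 members, and by window in 41.3% of the members' 46 windows against 2.14% of all 33469 windows. With TTTCGCGC and TTTGGCGC alone the shares were 32.6% and 0.792%. Of the 29 words found, 12 began within 100 bases before the start, 8 further upstream and 9 after it. The CCAAT box, written CCAAT, was in 58.7% of the members' windows and 37.5% of all windows. The cell cycle homology region of mitotic genes, searched as TTTGAA or TTCGAA, was in 17.4% and 19.7%. An E2F word was in 7 of 15 matched risen members and in 12 of 28 other matched members. With TTTCGCGC and TTTGGCGC alone the numbers were 7 of 15 and 8 of 28, and the difference was not tested. The windows below belong to the 4 risen members with the most E2F words, ties going to the larger rise. They are printed on the strand of the gene, with capitals for E2F words on either strand. In GRCr8, whose coordinates differ from the rn6 build of the counts, Mcm5 is at chr19:13488563-13488862 (plus strand), Mcm3 at chr9:30733697-30733996 (minus strand), Mcm2 at chr4:122918045-122918344 (minus strand) and Uhrf1 at chr9:1222936-1223235 (plus strand).
Mcm5: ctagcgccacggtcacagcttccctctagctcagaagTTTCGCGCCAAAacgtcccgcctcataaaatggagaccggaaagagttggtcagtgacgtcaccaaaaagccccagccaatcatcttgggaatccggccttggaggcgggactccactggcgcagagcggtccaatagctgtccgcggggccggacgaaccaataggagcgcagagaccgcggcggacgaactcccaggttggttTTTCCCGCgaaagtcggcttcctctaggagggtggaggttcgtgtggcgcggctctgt
Mcm3: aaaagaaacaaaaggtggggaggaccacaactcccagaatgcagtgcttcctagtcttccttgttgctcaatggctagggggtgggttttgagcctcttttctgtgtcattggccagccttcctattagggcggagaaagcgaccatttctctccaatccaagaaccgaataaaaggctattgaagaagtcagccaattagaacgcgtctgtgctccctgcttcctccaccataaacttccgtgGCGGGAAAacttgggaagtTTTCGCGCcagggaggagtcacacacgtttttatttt
Mcm2: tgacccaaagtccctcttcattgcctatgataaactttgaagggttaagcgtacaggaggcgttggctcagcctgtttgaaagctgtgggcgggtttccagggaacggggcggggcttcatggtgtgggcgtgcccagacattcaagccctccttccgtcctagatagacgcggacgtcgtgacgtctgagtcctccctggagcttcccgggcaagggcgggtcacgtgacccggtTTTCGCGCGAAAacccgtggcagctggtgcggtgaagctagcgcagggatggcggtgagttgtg
Uhrf1: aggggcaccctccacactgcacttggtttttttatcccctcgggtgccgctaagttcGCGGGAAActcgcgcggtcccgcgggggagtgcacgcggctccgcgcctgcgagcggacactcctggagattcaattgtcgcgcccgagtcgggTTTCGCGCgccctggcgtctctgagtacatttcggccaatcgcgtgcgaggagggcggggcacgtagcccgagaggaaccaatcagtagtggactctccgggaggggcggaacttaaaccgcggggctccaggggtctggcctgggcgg
In Mcm5, Mcm3 and Mcm2 a word lies next to the start, whereas the Uhrf1 words, in 1 of its RefSeq windows, lie further upstream. A match in such a window describes the letters only.

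The factors that mark and license origins were mixed, with 2 of 6 risen (33.3%), beside 14.0% of all tested genes. Cdc6, the ATPase that helps load the MCM ring, stood at 5.97 and 6.61 CPM in siNT and at 13.9 and 15.5 CPM in si3m. It rose 2.33-fold (log2 1.22, SE 0.296, edgeR adjusted p = 0.00598). Gmnn encodes geminin, which binds Cdt1 and blocks a second round of licensing. It rose from 21.9 and 21.3 CPM to 40.7 and 35.6 CPM, a log2 change of 0.82 (SE 0.185, adjusted p = 0.00346). For both genes the si3m libraries lay well above the siNT libraries. Cdt1, the partner of geminin, had 14.4 and 18.8 CPM in siNT and 24.02 and 17.9 CPM in si3m, and its groups overlapped (log2 0.34, 95% interval -0.18 to 0.87). The 3 listed subunits of the origin recognition complex, Orc1, Orc2 and Orc6, gave no call in edgeR, also at an unadjusted p under 0.05, and none in DESeq2. Orc2 had 51.3 and 58.9 CPM in siNT and 53.2 and 58.8 CPM in si3m, with an interval of -0.27 to 0.32 on the log2 scale. Orc6 had 20.9 and 22.9 CPM against 18.4 and 22.6 CPM, the opposite sign to the rest of the class, and the scarce Orc1 had 3.48 and 7.62 CPM against 6.36 and 6.81 CPM. The 95% intervals reached from -0.57 to 0.37 for Orc6 and from -0.67 to 1.16 for Orc1, so that changes within those bounds are not excluded.

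The MCM2-7 helicase, the motor of the replication fork, was the class with the most calls. It had 5 of 6 subunits rising, beside 14.0% of all tested genes. Both si3m libraries lay above both siNT libraries for all 6, which was so for 32.6% of all tested genes. Mcm5 went from 12.4 and 12.2 CPM in siNT to 27.3 and 26.9 CPM in si3m, with replicates nearly equal in each group (log2 1.14, SE 0.224, edgeR adjusted p = 0.00129). Mcm3 rose 2.42-fold, from 9.46 and 6.61 CPM to 21.2 and 17.6 CPM (log2 1.27, SE 0.278, adjusted p = 0.00281). These 2 subunits had the fewest counts of the ring and the largest fold changes. Mcm4 and Mcm6 rose less. Mcm4 stood at 89.1 and 71.6 CPM in siNT and at 109 and 114 CPM in si3m (log2 0.47, SE 0.111), and Mcm6 at 42.3 and 49.8 CPM and at 71.1 and 65.6 CPM (log2 0.57, SE 0.138). Mcm2, with 19.9 and 19.3 CPM against 26.4 and 32.5 CPM, only just passed (log2 0.58, adjusted p = 0.0493). Its call was lost in 8 of 15 alternatives, among them DESeq2 (0.133) and leaving out siNT replicate 1 (0.0505), siNT replicate 2 (0.0706), si3m replicate 1 (0.0585) or si3m replicate 2 (0.362). Mcm7 did not pass, at 33.4 and 34.3 CPM against 37.7 and 43.0 CPM (log2 0.25, 95% interval -0.10 to 0.60).

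Mcm7 is also the host gene of the microRNAs Mir106b, Mir93 and Mir25, which have rows of their own and lie inside it in the GRCr8 annotation. They were looked at because of this position, and their mature sequences from RefSeq are given with the seed, bases 2 to 8, in capitals. miR-106b and miR-93 share a seed, and miR-25 has another.
rno-miR-106b-5p: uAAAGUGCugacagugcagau
rno-miR-93-5p: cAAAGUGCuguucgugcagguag
rno-miR-25-3p: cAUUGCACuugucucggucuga
All 3 rows fell while their host did not, and 13.9% of all tested genes fell. Values of other microRNA rows are not given here, so these falls are not shown to be particular to this locus. Mir93 had 43.3 and 39.6 CPM in siNT and 17.4 and 17.9 CPM in si3m (log2 -1.23, SE 0.186, edgeR adjusted p = 1.32e-04). Mir25 had 142 and 170.2 CPM against 87.4 and 114 CPM (log2 -0.64), and Mir106b 37.8 and 34.6 CPM against 21.0 and 22.9 CPM (log2 -0.73). The call of Mir106b was lost without si3m replicate 1 (0.0796). How reads were shared between Mcm7 and these rows is not given in the sources used here, so the Mcm7 count is uncertain.

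Of the factors that turn the loaded ring into an active helicase, 1 of 6 rose (16.7%), a share near the 14.0% of all tested genes. All 6 had positive log2 values, where 51.2% of all tested genes did. Gins2, a subunit of the GINS tetramer, had 6 counts in each siNT library, 1.49 and 1.52 CPM, and 44 and 40 counts in si3m, 5.18 and 6.19 CPM. Its siNT counts lay under the filter for low counts, so Gins2 entered the test through si3m only, where it was high. The rise was 3.72-fold (log2 1.89, SE 0.548, edgeR adjusted p = 0.0170), from a level of 6 counts that a count of 0 would also allow. It was lost without si3m replicate 1 (0.0866) or si3m replicate 2 (0.182), and DESeq2 gave Gins2 no adjusted p. Gins4 had 12 and 2 counts in siNT and 36 and 38 in si3m and did not pass (log2 1.51, adjusted p = 0.101), whereas without siNT replicate 1 it did (log2 3.26, adjusted p = 0.00268). Mcm10, which stimulates helicase activation, had 4.48 and 3.05 CPM against 6.59 and 8.35 CPM (log2 0.98, adjusted p = 0.0991). Cdc45, the third component of the active helicase, had 13.9 and 10.7 CPM against 18.4 and 18.6 CPM (log2 0.58, adjusted p = 0.0985), and passed without siNT replicate 1 (0.0336). Both si3m libraries lay above both siNT libraries for Gins4, Mcm10 and Cdc45, which was so for 32.6% of all tested genes. Gins1 (5.48 and 9.15 CPM against 12.5 and 5.57 CPM) and Gins3 (7.47 and 7.11 CPM against 8.95 and 7.73 CPM) gave log2 values of 0.32 and 0.20 that did not pass. Low counts set wide limits in this class, for example 0.12 to 2.90 for Gins4. Gins4 too needed its si3m counts to enter the test.

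The subunits of the clamp loader did not move together, and the clamp itself gave no call. PCNA encircles DNA and tethers the polymerases, and replication factor C (RFC), a ring of 1 large and 4 small subunits, opens and loads it. Pcna, the member with the most footprints after Rrm1, stood at 244 and 240.3 CPM in siNT and 229.9 and 222 CPM in si3m. Its log2 value of -0.10 did not pass (95% interval -0.23 to 0.03), although with scaling to the total count it was lower (log2 -0.18, edgeR adjusted p = 0.0382). The small subunits Rfc2 and Rfc5 rose. Rfc2 went from 6.47 and 8.13 CPM to 22.6 and 24.7 CPM, 3.24-fold (log2 1.69, SE 0.261, adjusted p = 1.61e-04). Rfc5 went from 25.9 and 15.2 CPM to 55.8 and 61.6 CPM, 2.84-fold (log2 1.51, SE 0.204, adjusted p = 4.47e-05). The large subunit Rfc1 fell, from 99.1 and 95.5 CPM to 72.8 and 83.8 CPM (log2 -0.32, SE 0.109, adjusted p = 0.0410). That call was lost with DESeq2 (0.104), without siNT replicate 1 (0.0952) and without si3m replicate 1 (log2 -0.20, adjusted p = 0.388). Rfc4 also lay lower in both si3m libraries, at 54.9 and 52.6 CPM against 65.2 and 58.9 CPM, but did not pass (log2 -0.21). Rfc3 had 11.9 and 10.2 CPM in siNT and 17.9 and 14.5 CPM in si3m, and did not pass either (log2 0.56, adjusted p = 0.134).

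Polymerase alpha with primase, which lays down the RNA-DNA primers of every new strand, rose in 3 of its 4 subunits. The share of rises over all tested genes was 14.0%. The accessory subunit Pola2 rose 3.31-fold, from 5.97 and 5.59 CPM in siNT to 19.8 and 18.6 CPM in si3m (log2 1.73, SE 0.280, edgeR adjusted p = 2.46e-04). Its catalytic partner Pola1 rose 1.47-fold, from 74.7 and 72.2 CPM to 112 and 103 CPM (log2 0.55, SE 0.104, adjusted p = 8.69e-04). Prim1, the catalytic primase subunit, rose from 50.3 and 56.4 CPM to 71.6 and 79.5 CPM (log2 0.50, adjusted p = 0.00864), a call lost without si3m replicate 2 (0.0783). The other primase subunit, Prim2, had 14.4 and 17.8 CPM against 16.5 and 13.3 CPM, with overlapping groups and a negative log2 value of -0.11.

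The elongating polymerases delta and epsilon, which make the lagging and the leading strand, gave no call in any of their 5 listed subunits, by edgeR (also at an unadjusted p under 0.05) or, for the 4 subunits to which it gave an adjusted p, by DESeq2. Pold1 had no adjusted p in DESeq2. Pole, the catalytic subunit of polymerase epsilon, had 43.3 and 46.7 CPM in siNT and 48.3 and 51.0 CPM in si3m (log2 0.14, 95% interval -0.17 to 0.45). Its partner Pole2 had 5.48 and 6.61 CPM against 9.19 and 8.35 CPM (log2 0.54, interval -0.21 to 1.28). Pold1, the catalytic subunit of polymerase delta, had only 8 counts in each siNT library and 26 and 30 in si3m (log2 0.92, interval -0.33 to 2.17). Pold3 was the member of this class lowest in si3m, at 10.5 and 14.7 CPM against 7.30 and 9.59 CPM, without passing (log2 -0.58, adjusted p = 0.186 in edgeR). Pold2 rested on its siNT libraries, which stood at 15.4 and 5.08 CPM, against 14.8 and 14.2 CPM in si3m. Its log2 value of 0.50 did not pass, became 1.52 without siNT replicate 1 (edgeR adjusted p = 5.02e-04) and -0.08 without siNT replicate 2. Lig1, the ligase that seals Okazaki fragments, and Fen1, the nuclease that trims their flaps, did not pass, with log2 values of 0.65 and 0.14. Lig1 lay at 4.98 and 4.57 CPM in siNT and at 8.48 and 6.497 CPM in si3m, and Fen1 at 12.4 and 12.7 CPM and at 15.3 and 12.4 CPM.

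Replication protein A coats and protects the unwound single strand, and its subunits did not move together. Rpa1, the large DNA-binding subunit, fell from 171 and 143 CPM in siNT to 99.4 and 92.2 CPM in si3m, 1.64-fold lower (log2 -0.71, SE 0.0962, edgeR adjusted p = 4.53e-05). No member fell further, and the 2 groups were far apart. Rpa1 is also listed as an older name of Polr1a, the large subunit of RNA polymerase I, which has a current symbol of its own. The small subunits Rpa2 and Rpa3 were higher in both si3m libraries without passing. Rpa2 had 5.97 and 7.11 CPM against 8.48 and 10.8 CPM (log2 0.55, 95% interval -0.17 to 1.28). Rpa3 had 5.48 and 10.7 CPM against 16.3 and 13.0 CPM (log2 0.86, adjusted p = 0.0599). Rpa3 passed in 7 alternatives, among them without siNT replicate 2 (log2 1.43, edgeR adjusted p = 8.52e-04), without si3m replicate 2 (0.0485) and with the replicate block (0.0380).

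Enzymes that supply deoxynucleotides included the largest rise of the list. Tk1, the thymidine kinase of S phase, had 10 and 12 counts in siNT and 106 and 86 in si3m, or 2.49 and 3.05 CPM against 12.5 and 13.3 CPM. It rose 4.63-fold (log2 2.21, SE 0.366, edgeR adjusted p = 2.99e-04). The subunits of ribonucleotide reductase, which makes deoxyribonucleotides from ribonucleotides, rose by less. Rrm1, the member with the most footprints, went from 284 and 259 CPM to 330.0 and 318 CPM (log2 0.25, SE 0.0612, adjusted p = 0.00551), a call lost with scaling to the total count (log2 0.17, adjusted p = 0.0515). Rrm2, the subunit that limits the enzyme through the cycle, went from 51.8 CPM in both siNT libraries to 83.1 and 66.5 CPM (log2 0.54, adjusted p = 0.00889). Without si3m replicate 1 its call was lost (log2 0.37, adjusted p = 0.174). Tyms, the thymidylate synthase, and Dut, which removes dUTP, did not pass. Tyms lay at 11.4 and 12.2 CPM in siNT and at 11.5 and 9.28 CPM in si3m (log2 -0.18), and Dut at 13.9 and 15.8 CPM and at 18.4 and 19.5 CPM (log2 0.35).

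Among regulators of the G1/S step, both E cyclins rose and E2f1 did not. Ccne2 went from 66.7 and 77.2 CPM to 88.3 and 105 CPM (log2 0.42, SE 0.121, edgeR adjusted p = 0.0160), a call lost without siNT replicate 1 (0.0505) or si3m replicate 2 (0.183). Ccne1 went from 16.9 and 10.7 CPM to 22.7 and 23.5 CPM (log2 0.74, SE 0.252, adjusted p = 0.0383). Its siNT libraries differed, and its log2 value was 1.12 without siNT replicate 1 and 0.45 without siNT replicate 2 (adjusted p = 0.199). It was also lost with DESeq2 (0.101), without si3m replicate 1 (0.0861) and without si3m replicate 2 (0.109). Cdk2, the kinase bound by these cyclins, had 10.5 and 14.2 CPM against 15.3 and 15.5 CPM (log2 0.32, 95% interval -0.24 to 0.88). E2f1, the transcription factor that activates many of the genes listed here, had 37.3 and 44.2 CPM in siNT and 38.2 and 29.7 CPM in si3m, overlapping groups with a log2 value of -0.26 (interval -0.64 to 0.12).

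Genes that rebuild chromatin behind the fork gave 1 rise among 4. Uhrf1, which brings the maintenance DNA methyltransferase to newly copied DNA, went from 56.3 and 59.96 CPM to 93.3 and 96.2 CPM (1.63-fold, log2 0.70, SE 0.113, edgeR adjusted p = 2.26e-04). The subunits of chromatin assembly factor 1, which places new histones, had log2 values of 0.08 and 0.04. Chaf1a lay at 11.4 and 4.57 CPM in siNT and 7.77 and 9.28 CPM in si3m, and Chaf1b at 14.4 and 15.2 CPM and 16.7 and 13.6 CPM, with overlap in both. Slbp, the protein that binds the stem-loop of histone messenger RNAs, had 88.4 and 101 CPM against 95.4 and 82.9 CPM. Its log2 value of -0.08 had an interval of -0.32 to 0.16.

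**Figure D3:**
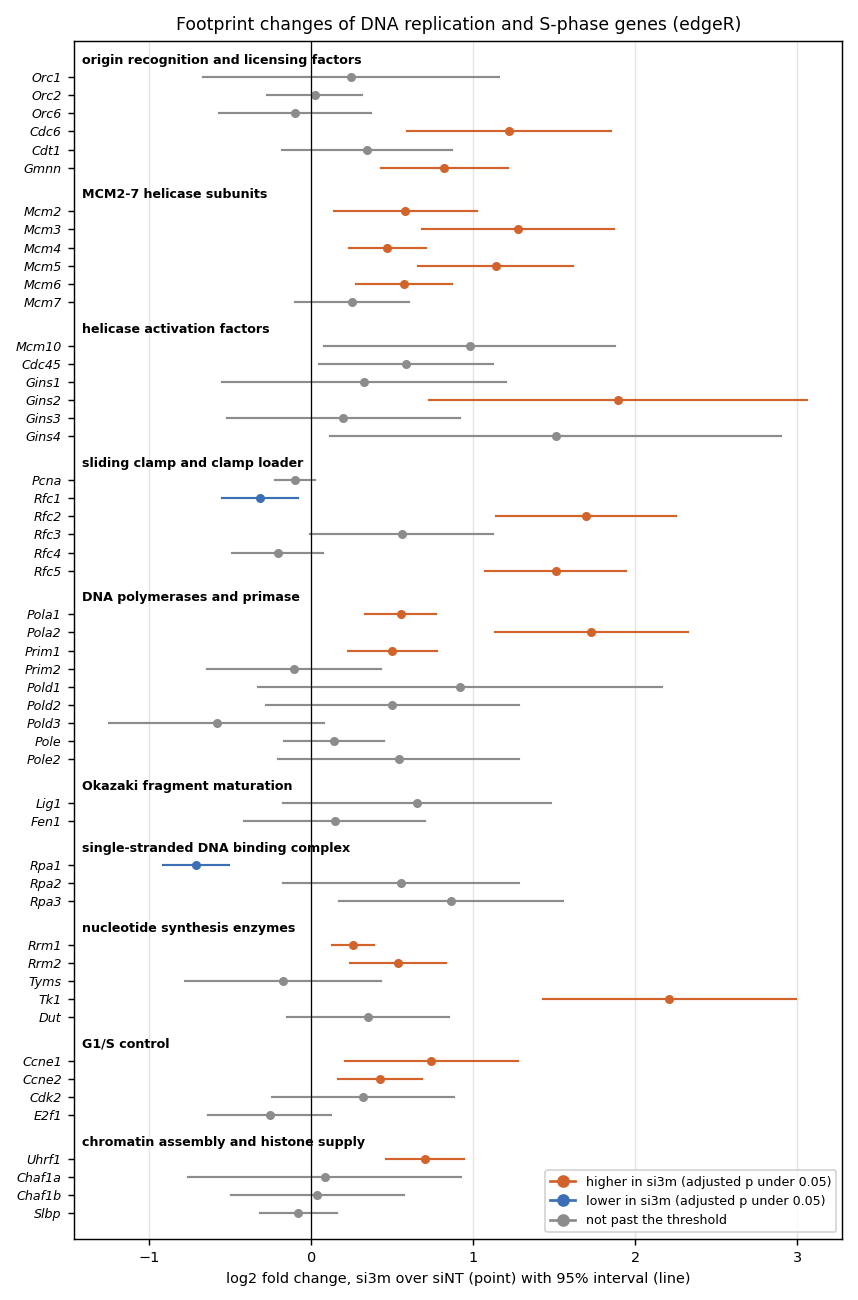
Log2 fold change of si3m over siNT for the 51 members (points) with 95% intervals (lines), grouped by role, in orange where higher and blue where lower past the threshold, and grey elsewhere. Most points lie right of 0, with 41 positive and 10 negative values, where 51.2% of all tested genes were positive. The longest intervals belong to members with few counts such as Gins4 and Pold1.

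Within several complexes the footprints were divided differently between subunits in the 2 groups. To show this independently of scaling, each subunit was taken as a share of its complex's counts in the same library. Such shares depend on coding length and are compared here only between libraries. With 2 libraries against 2, the exact permutation test of a single share cannot go below p = 0.333, so no test is given. Separate groups are common: by CPM, 32.6% of all tested genes lay higher in both si3m libraries and 31.3% lower. In RFC the share of Rfc5 was 10.3% ± 3.04 in siNT and 25.4% ± 0.724 in si3m, and that of Rfc2 3.71% ± 0.864 and 10.3% ± 0.237 (SD, n = 2 each). The share of Rfc1 was 49.2% ± 2.35 in siNT and 33.9% ± 2.01 in si3m. All these shares were apart by more than the spread between replicates. The whole complex summed to 198 ± 14.6 CPM and 231 ± 9.41 CPM, so that its sum moved little beside its subunits. In replication protein A the share of Rpa1 was 91.3% ± 3.40 in siNT and 79.8% ± 0.431 in si3m. In polymerase alpha-primase the share of Pola2 was 3.89% ± 0.305 and 8.83% ± 0.244, while Pola1 kept 49.4% ± 2.74 and 49.5% ± 2.02 with overlapping libraries. In the MCM ring, Mcm5 had 6.16% ± 0.189 in siNT and 9.16% ± 0.246 in si3m and Mcm7 16.9% ± 1.10 and 13.6% ± 1.05, whereas Mcm2, Mcm4 and Mcm6 overlapped between groups. The ring as a whole came to 200.2 ± 9.01 CPM and 296 ± 4.83 CPM. Shares of Gins1 and Gins4 within GINS and of Pold2 within polymerase delta overlapped between groups, and those of their listed partners did not. Most subunits named here with separate shares had a call above, so their shares restate those changes in part.

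**Figure D4:**
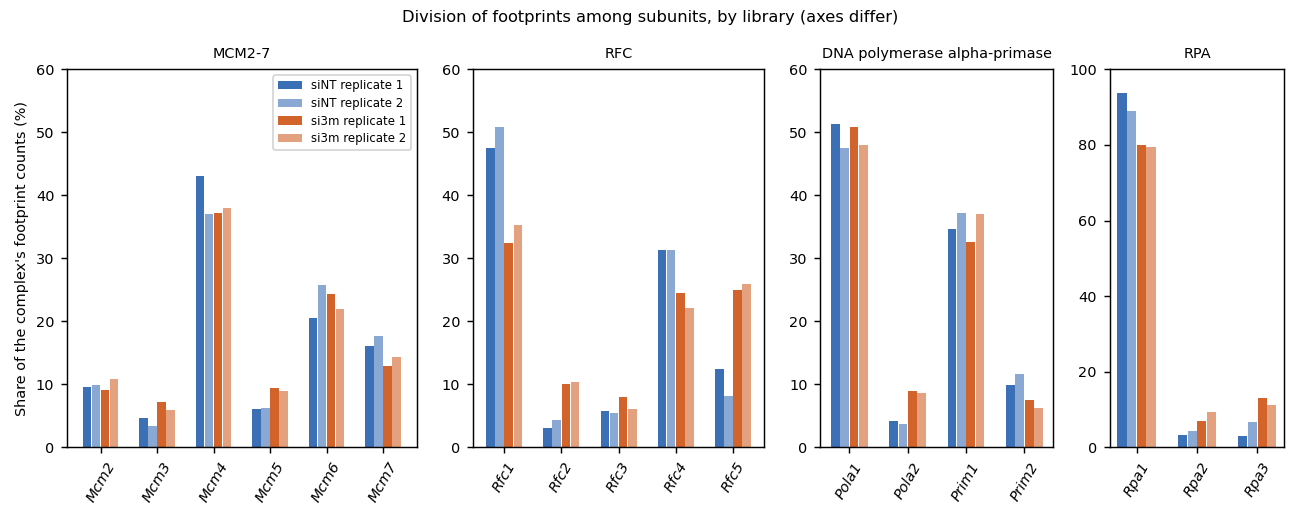
Share of a complex's footprint counts that fell on each subunit (y axis, percent, starting at 0, with a longer axis for RPA), in each of the 4 libraries (bars, blue for siNT and orange for si3m, the paler bar being replicate 2). Rfc2, Rfc5 and Pola2 take a larger share in both si3m libraries, and Rfc1 and Rpa1 a smaller one.

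Log2 values were lower among the members with the most footprints. Across the 51 genes, Spearman's rho between mean CPM and log2 fold change was -0.37, and -0.10 over all 12672 tested genes. These are descriptions across genes that share the same 4 libraries. The 17 members with the highest levels, 37.3 to 298 CPM, had a median log2 value of 0.25 and included both falls and 9 rises. The 17 members with the lowest levels, 2.93 to 12.4 CPM, had a median of 0.55 but only 3 rises, and the 17 between them a median of 0.56 and 7 rises. CPM is not divided by length here, so these levels do not rank the genes by density of ribosomes.

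Reads can be shared with other genes for part of the list. In the GRCr8 annotation 16 members overlap another gene, 8 of them one with its own row, and 14 members have pseudogenes that carry their name, Pcna, Tk1, Rfc5 and Gmnn among them. Counts of these members are uncertain. Of the 23 members with neither, 6 rose, beside 37.3% of all members and 14.0% of all tested genes. Their median log2 value was 0.50. Most of the risen members and both fallen members are among the other 28. The 6 were Cdc6, Mcm5, Rfc2, Pola2, Prim1 and Ccne1, named after their values were seen.

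Further genes of the replication pathway, 93 in lists drawn up beside the members, gave 19 higher (21.1%) and 7 lower (7.78%) of 90 tested, with a median log2 value of 0.21, beside 14.0% higher and 13.9% lower among all tested genes. In the list of further origin and firing factors 1 of 14 rose (7.14%) and 3 fell (21.4%). Orc3 fell from 46.3 and 43.2 CPM to 28.7 and 27.1 CPM (log2 -0.68, edgeR adjusted p = 0.00590). Orc5 (log2 -0.34), Rif1, which delays origin firing (log2 -0.22), and the firing kinase Cdc7 (log2 0.91) also passed. Orc5 was lost without si3m replicate 1 (0.0662) or si3m replicate 2 (0.0503). Rif1 was lost without siNT replicate 2 (log2 -0.13, adjusted p = 0.332), si3m replicate 1 (0.149) or si3m replicate 2 (0.108). Cdc7 was lost without siNT replicate 2 (log2 0.48, adjusted p = 0.203), si3m replicate 1 (0.0559) or si3m replicate 2 (0.0507), and had log2 1.56 without siNT replicate 1. Among fork factors 4 of 17 tested rose. Dscc1, a subunit of an alternative clamp loader, rose 6.02-fold, from 10 and 12 counts to 148 and 104 counts (log2 2.59, SE 0.337, adjusted p = 3.03e-05). Top2a, the topoisomerase of dividing cells, and Pclaf, a PCNA-binding protein, rose by log2 0.53 and 2.06. The fork protein Wdhd1 rose by log2 0.44. Pclaf had 4 and 8 counts in siNT, about the 6 counts that a count of 0 would allow, and 48 and 46 in si3m. Pclaf needed its si3m counts to enter the test. Its call was lost without si3m replicate 2 (0.121) and with thinned counts (0.0713), and its log2 value ranged from 1.64 without siNT replicate 1 to 2.66 without siNT replicate 2. Wdhd1 was lost without siNT replicate 1 (0.130) or si3m replicate 2 (0.198).

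Other nucleotide enzymes gave 3 rises and 1 fall among 13, led by the nucleoside diphosphate kinases Nme1 (log2 1.01, edgeR adjusted p = 4.47e-06) and Nme2 (log2 0.61) and the thymidylate kinase Dtymk (log2 0.50). Over all tested genes 14.0% rose and 13.9% fell. Cad, which starts pyrimidine synthesis, fell by 0.19 on the log2 scale, a call lost without siNT replicate 2 (0.125), si3m replicate 1 (0.106) or si3m replicate 2 (0.0582). Chromatin factors gave 4 rises and 2 falls among 11. Asf1a, a histone chaperone that works with chromatin assembly factor 1, fell from 269 and 237 CPM to 159.7 and 162 CPM (log2 -0.65, adjusted p = 4.94e-06). Ssrp1 of the FACT chaperone rose by log2 0.61, Mms22l by 0.68 and Rbbp7 by 0.23, the last lost without si3m replicate 2 (0.0643). The remaining calls of this list, named after their values were seen, were Asf1b, the form of Asf1 tied to dividing cells, which went from 2.49 and 3.56 CPM to 9.89 and 6.81 CPM (log2 1.47, adjusted p = 0.0182), and Supt16h, the partner of Ssrp1, which fell by 0.20 on the log2 scale. Asf1b was lost without si3m replicate 1 (0.262), and Supt16h without siNT replicate 2 (0.0641), si3m replicate 1 (0.0513) or si3m replicate 2 (0.127). Among E2F, RB and cyclin A genes 3 of 21 rose (14.3%) and 1 fell (4.76%), a share of rises near that of all tested genes (14.0%). The fall was that of Rb1, the retinoblastoma protein that restrains E2F, from 67.7 and 70.1 CPM to 45.7 and 40.8 CPM (log2 -0.67, SE 0.135, adjusted p = 0.00150). Mybl2 (log2 1.03), E2f8 (log2 1.35) and Dtl (log2 0.48) rose. Mybl2 was lost without si3m replicate 1 (0.0710), and E2f8 without si3m replicate 1 (0.0693) or si3m replicate 2 (0.0529). S-phase checkpoint genes gave 4 rises among 14. They were Rad9a (log2 0.82), Wee1 (log2 0.55), Atr (log2 0.35) and Brca2 (log2 0.36). Wee1 was lost without si3m replicate 1 (0.0610), Atr without siNT replicate 1 (0.0717), and Brca2 without siNT replicate 2 (0.0895), si3m replicate 1 (0.173) or si3m replicate 2 (0.0846). The number of further genes that fell, 7, became 4 without si3m replicate 1 and 3 without si3m replicate 2.

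Mitosis and kinetochore genes, the neighbouring phase of the cycle, are set beside the replication genes for comparison. Of 30 such genes 26 rose (86.7%), with a median log2 value of 0.99, against 19 of 51 and 0.50 for the replication genes. Among all tested genes 14.0% rose. Top2a is counted both here and among the further fork factors. Summed, they came to 1365 ± 4.60 CPM (siNT) and 2332 ± 3.15 CPM (si3m), each a mean ± SD of 2 libraries. Ccnb1, the cyclin of entry into mitosis, went from 36.8 and 35.6 CPM to 84.6 and 87.2 CPM (log2 1.25, edgeR adjusted p = 3.05e-06), and the proliferation marker Mki67 and the kinetochore gene Cenpf rose by log2 0.70 and 1.04. The difference between these lists was not tested. Of the genes that govern G1, 10 of 12 were tested. The cyclin Ccnd1 rose by log2 0.54 (edgeR adjusted p = 4.51e-05), from 213 and 256 CPM to 335 and 347 CPM. Cdkn1b, the p27 inhibitor of cyclin E with Cdk2, fell from 158 and 155 CPM to 115 and 104 CPM (log2 -0.52, adjusted p = 2.41e-04). Cdk4 (log2 0.44) and the inhibitor gene Cdkn2a (log2 2.08) rose. Cdk4 was lost without siNT replicate 1 (log2 0.22, adjusted p = 0.0510) and had log2 0.72 without siNT replicate 2. Cdkn2a, with 10 and 2 counts in siNT, was lost without siNT replicate 2 (log2 1.37, adjusted p = 0.0591) or si3m replicate 1 (0.185), and had log2 3.62 without siNT replicate 1. Among these further genes DESeq2 did not call Asf1b, Brca2, Cad, Cdc7, Cdk4, Rif1, Supt16h and Wdhd1, and it gave Pclaf and Cdkn2a no adjusted p. Cdkn2a also needed its si3m counts to enter the edgeR test.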

How the data were processed

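Ribosome footprints were counted by the authors in 2 siNT and 2 si3m libraries, and each of the deposited files gives raw counts, whole numbers without normalization, for 31038 rows of gene symbols. Build rn6 and the tools featureCounts, HISAT2 2.2.1, Trimmomatic 0.40, DESeq2 and limma come from the submitters' processing notes. Which annotation was used, whether strand was used and how reads with more than 1 match were treated is not given in the sources used here, so reads of overlapping genes cannot be told apart. Between 94.9% and 97.3% of counts above 0 in a library were even, as if a fragment had been counted as 2 reads. A count of 0 therefore allowed up to 3 fragments (6 counts), 0.691 to 1.56 CPM of the library total, for counting error only.

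Both groups were fitted in edgeR 4.0.16 under R 4.3.3 (filterByExpr with a minimum count of 10, TMM scaling, glmQLFit in its legacy form, glmQLFTest, two-sided, Benjamini-Hochberg adjustment over 12672 genes, threshold 0.05). A standard error is the log2 fold change over the root of F. Of the fit, 15 alternatives were run, DESeq2 1.42.0 among them. Between replicates, the median chi-square on counts halved to fragments was 1.40 (siNT, 10370 rows) and 1.48 (si3m, 11849 rows) times that of counting noise. Rows with few fragments were left out of this check. The replicates were kept as 2 samples in each group. Replicate numbers were not used as pairs. Date-like symbols, 27 rows, stayed in the fit. Members and lists were chosen with earlier results of these data known, so no list was tested. Members past the threshold, of the other sign than their class, or with few counts are given by library, the rest likewise, and up to 4 genes with the smallest p from each further list. Coding lengths were not at hand, so footprint density per length is not given.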

Additional observations from a re-analysis of the deposited data

How the results depend on the processing

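Over 15 alternative fits the number of members higher ranged from 15 to 21 around 19. Of 21 members called, 13 kept the call in each fit, 8 lost it in at least 1, and 0 changed sign. The number lower, 2, was 1 with DESeq2, with upper quartile scaling and with thinned counts, 3 with total count scaling, and between 1 and 2 when each library was left out, since Rfc1 was lost without siNT replicate 1 or si3m replicate 1. The median of 0.50 became 0.42 with total count scaling and ranged from 0.44 to 0.54 when each library was left out. With the replicate block 20 members were higher and 2 lower, and it changed the call of Rpa3 only (log2 0.89, adjusted p = 0.038). Same-numbered libraries did not deviate together (r = -0.0228 over 12672 genes). Restricting the list to the 23 members with no overlapping gene or named pseudogene, chosen after seeing the data, left 6 higher and 0 lower (edgeR, 0 also at an unadjusted p under 0.05 and with DESeq2), by construction of the smaller list. Over all tested genes 14.0% were higher and 13.9% lower. The bias-adjusted form of the fit (legacy=FALSE), also added after seeing the data, gave 19 and 2.

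Of 30 members not called, 10 changed sign in at least 1 fit, and none passed with the other sign. With total count scaling Orc2 was -0.060 and Chaf1b -0.042. With thinned counts Orc1 was -0.21, Orc2 -0.044 and Chaf1b -0.020. When each library was left out, Orc1 ranged from -0.21 to 0.92, Orc2 from -0.072 to 0.13, Orc6 from -0.24 to 0.057, Gins1 from -0.38 to 0.78, Prim2 from -0.26 to 0.057, Pold2 from -0.080 to 1.52, Fen1 from -0.011 to 0.29, Chaf1a from -0.43 to 0.89, Chaf1b from -0.11 to 0.18 and Slbp from -0.18 to 0.024. The cause was not tested. The planned comparison of footprint density per coding length was not run. Depth limits the scarce members, for which intervals span more than 1 log2 unit.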
